A study of Mus musculus with 9 samples.

Results

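The genes described here belong to the machinery by which a myeloid cell of the bone marrow becomes an osteoclast, the cell that resorbs bone. The set holds 9 genes out of 23337 counted in every library, chosen by name, and the list was drawn up with earlier results of these data known. They are the receptors Tnfrsf11a and Csf1r, the immunoreceptor components Oscar, Trem2 and Tyrobp, the transcription factor Nfatc1, and the resorption genes Acp5, Ctsk and Atp6v0d2. Of these, 8 passed the filter on low counts and were tested together with 12553 genes in all. Oscar did not pass.

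RNA sequencing was performed on CD11b+ bone marrow cells of 9 male C57BL/6 mice aged 3 to 6 weeks, 3 mice per group, with no genetic modification named for any group. PBS mice received 100 µl of PBS by tail vein on days 1, 3 and 5. EnzR EV mice received, on the same days, extracellular vesicles (EVs, named exosomes in the sample labels; 10 µg protein in 100 µl) from the human prostate cancer cell line CWR-R1 grown resistant to the antiandrogen enzalutamide (EnzR). EnzR EV + HDL NP mice received the same EVs and, on days 0, 2 and 4, 100 µl of high-density lipoprotein-like nanoparticles (HDL NPs), gold-cored particles that carry apolipoprotein A-1 and phospholipid. The HDL NP concentration is 1 µM in the sample labels and 100 µM in the study's methods. Mice were euthanized 24 h after the last injection, red cells of femur and tibia marrow were lysed, and CD11b+ cells were taken with a positive selection kit. No group received HDL NPs without EVs, so HDL NPs are always seen together with EVs. The gate takes granulocytes, monocytes and macrophages together, and osteoclast precursors were not sorted from them.

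Osteoclasts form by fusion of monocyte-lineage precursors. Macrophage colony-stimulating factor, acting through CSF1R, keeps the precursors alive and dividing and lets them display RANK, the product of Tnfrsf11a, which then binds RANK ligand made by osteoblasts and other stromal cells. RANK signals through TRAF6 to NF-κB and AP-1, while adaptors that carry immunoreceptor tyrosine-based activation motifs (ITAMs), among them DAP12 encoded by Tyrobp, raise calcium and switch on NFATc1, the transcription factor that drives genes for bone resorption such as Acp5 and Ctsk. Csf1r, Tyrobp and Nfatc1 are also used by monocytes, macrophages or other leukocytes that never become osteoclasts.

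The libraries held between 2575776 and 18110561 counts. The lowest totals were those of EnzR EV replicate 1 (2575776) and PBS replicate 1 (6006087). Rn45s, the ribosomal RNA precursor, took 42.7% of the counts in EnzR EV replicate 1, 20.3% in PBS replicate 1 and 14.2% in EnzR EV replicate 3, and 0.657% to 2.87% in the other 6 libraries. Levels are given as CPM scaled by TMM factors (TMM CPM), that is, relative to the library's total after correction for its composition. The value that 3 counts would give, taken here as the counting floor, ran from 0.160 to 0.355 TMM CPM in 7 libraries, 0.528 in PBS replicate 1 and 1.65 in EnzR EV replicate 1. Itgam, which encodes the CD11b used for the selection, lay between 1389 and 2006 TMM CPM and ranked 26 of 12553 genes by mean level.

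Per kilobase of exon, the 9 members spanned more than 4 orders of magnitude. Tyrobp was the most abundant, at 1797 ± 970 TMM CPM per kb (SD, n = 9 mice), followed by Csf1r at 80.6 ± 12.4 and Nfatc1 at 14.8 ± 3.90. Trem2 followed at 6.58 ± 4.39, Acp5 at 4.61 ± 1.30, Ctsk at 1.78 ± 1.66 and Tnfrsf11a at 1.10 ± 0.329. Atp6v0d2 at 0.271 ± 0.220 and Oscar at 0.0485 ± 0.0980 closed the order. Only the steps from Tyrobp to Csf1r and from Csf1r to Nfatc1 separated the values of all 9 mice, and every later pair of neighbours had overlapping ranges. Within single mice Acp5 nevertheless lay above Ctsk in 9 of 9, and Nfatc1 above Trem2 in 8 of 9. Tyrobp, Csf1r and Nfatc1, which many myeloid cells use, had at least 95 counts in every library, and the resorption genes had at most 187 in any.

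The counting floor decided how much could be read from 4 of the members. Oscar had 3 counts or fewer in 9 of 9 libraries and 4 counts in all. Atp6v0d2 had 3 counts or fewer in 4 libraries and under 10 in 6, with 79 counts in all. Ctsk had 0 counts in EnzR EV replicate 1 and 8 in PBS replicate 1, and at least 13 in the other libraries. Tnfrsf11a had exactly 3 counts in EnzR EV replicate 1 and at least 29 elsewhere. Acp5 came near the floor once, with 9 counts in EnzR EV replicate 1. Csf1r, Nfatc1, Tyrobp and Trem2 had at least 11 counts in every library.

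**Figure D1:**
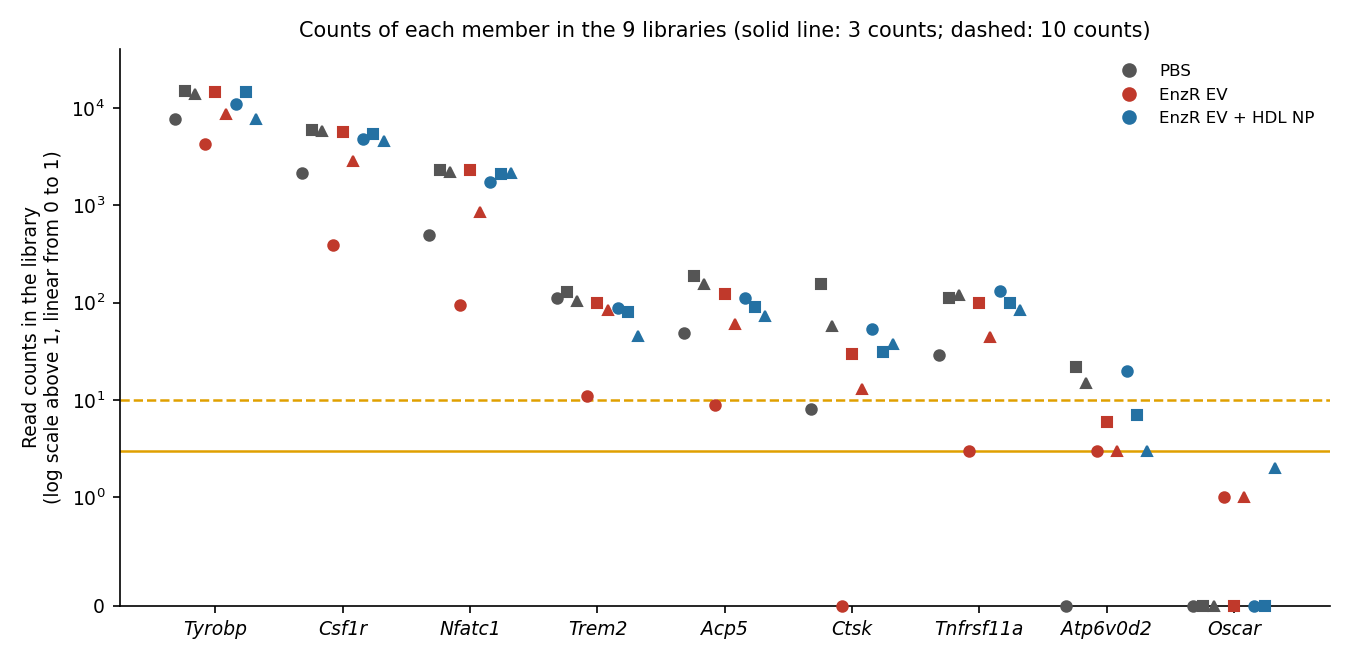
Read counts of each of the 9 members in each of the 9 libraries, on an axis that is logarithmic above 1 count, with members in order of level per kilobase; circles, squares and triangles are replicates 1, 2 and 3, and the lines mark 3 and 10 counts. All Oscar points and 4 of the Atp6v0d2 points lie at or under 3 counts, while Csf1r and Tyrobp never fall under 388.

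The question put to each member was whether its level differed between mice conditioned with EnzR EVs and PBS mice, and whether HDL NPs altered that. No member passed the threshold in any comparison, and neither did any other gene: at an adjusted p under 0.05, edgeR's quasi-likelihood test called 0% of the 12553 genes in each of the 3 comparisons. At an unadjusted p under 0.05 it listed 436 genes for EnzR EV against PBS, 268 for EnzR EV + HDL NP against PBS and 1325 for EnzR EV + HDL NP against EnzR EV. DESeq2 called 8, 7 and 1 genes in these comparisons, and limma voom with sample quality weights called 1990, 10 and 653, none of them members. With the replicate number as a block, edgeR called 1 gene for EnzR EV against PBS, not a member. The comparisons share mice: both comparisons with PBS use the same PBS mice, and the EnzR EV mice enter 2 comparisons. An exact permutation test of 3 against 3 mice cannot give a p under 0.10.

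Among the receptors, Tnfrsf11a (chromosome 1:105780718-105847981, plus strand, GRCm38), which encodes RANK, was measured at 5.10, 6.44 and 6.92 TMM CPM in PBS replicates 1, 2 and 3. In EnzR EV mice it was measured at 1.65, 5.27 and 5.20, and in EnzR EV + HDL NP mice at 7.37, 5.96 and 5.87. EnzR EV replicate 1, at the floor, was the lowest of the 9 mice, the other EnzR EV mice lay just above the lowest PBS mouse, and all EnzR EV + HDL NP mice lay above all EnzR EV mice. The group means were 6.16 ± 0.942, 4.04 ± 2.07 and 6.40 ± 0.844 TMM CPM (SD, n = 3 each). The edgeR log2 fold change for EnzR EV + HDL NP against EnzR EV was 0.50 ± 0.32 (SE), with an adjusted p of 0.510. That estimate was 0.28 without EnzR EV replicate 1. For EnzR EV against PBS the log2 fold change was -0.46 ± 0.32, with an edgeR adjusted p of 0.928, and without EnzR EV replicate 1 it was -0.25. With HDL NPs the level was close to that of PBS, the log2 fold change being 0.042 with a 95% interval from -0.63 to 0.72, and its sign turned to -0.061 without PBS replicate 1.

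Csf1r (chromosome 18:61100598-61132149, plus strand) encodes the receptor for macrophage colony-stimulating factor and interleukin 34. Its levels in PBS mice were 381, 339 and 330 TMM CPM. They were 213, 300 and 338 in EnzR EV mice and 267, 320 and 318 in EnzR EV + HDL NP mice. Every EnzR EV + HDL NP mouse lay below every PBS mouse, whereas the EnzR EV mice ranged from the lowest value of the series to within the PBS range. The means were 350 ± 27.0, 284 ± 64.2 and 301 ± 30.04 TMM CPM, the smallest relative spread among the members in PBS mice (coefficient of variation 7.72%). The edgeR log2 fold changes were -0.30 ± 0.19 for EnzR EV against PBS and -0.21 ± 0.19 for EnzR EV + HDL NP against PBS, with 95% intervals from -0.72 to 0.12 and from -0.63 to 0.20. The first was -0.13 without EnzR EV replicate 1 and -0.059 without that library and PBS replicate 1 together, and the second was -0.12 without EnzR EV + HDL NP replicate 1. EnzR EV + HDL NP against EnzR EV gave 0.084, which became -0.090 without EnzR EV replicate 1. Csf1r overlaps Hmgxb3 on the other strand and the microRNA gene Mir6983 on its own, and the strand setting of the counting is not given in the sources used here.

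Tyrobp (chromosome 7:30413760-30417585, plus strand) encodes DAP12, the ITAM adaptor that pairs with TREM2 and other receptors. Its levels were 1338, 853 and 803 TMM CPM in PBS mice, 2336, 768 and 1013 in EnzR EV mice, and 615, 860 and 534 in EnzR EV + HDL NP mice. EnzR EV replicate 1 stood far above the other 8 mice, PBS replicate 1 came next, and the EnzR EV + HDL NP range overlapped those of both other groups. The edgeR log2 fold change for EnzR EV + HDL NP against EnzR EV was -1.03 ± 0.39, with a 95% interval from -1.90 to -0.17, an unadjusted p of 0.0239 and an adjusted p of 0.461. It was -0.42 without EnzR EV replicate 1. For EnzR EV against PBS the estimate was 0.46 ± 0.39, and without that library it was -0.16. With HDL NPs it was -0.57 ± 0.39 against PBS, and -0.31 without PBS replicate 1.

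Trem2 (chromosome 17:48346401-48354147, plus strand) encodes a lipid-binding receptor that signals through DAP12 in macrophages, microglia and osteoclast precursors. PBS mice had 19.9, 7.48 and 5.95 TMM CPM, EnzR EV mice 6.04, 5.32 and 10.0, and EnzR EV + HDL NP mice 5.01, 4.83 and 3.14. In TMM CPM the mice given HDL NPs were below all mice of both other groups. Scaled by library size only, they overlapped the EnzR EV mice. EnzR EV replicate 1, with 11 counts, was then at 4.27 CPM, below EnzR EV + HDL NP replicates 1 and 2 at 5.70 and 4.88. PBS replicate 1 alone set the PBS mean of 11.1 ± 7.65, against 7.14 ± 2.55 and 4.33 ± 1.03 in the other groups. EnzR EV + HDL NP against PBS gave an edgeR log2 fold change of -1.31 ± 0.45, with a 95% interval from -2.31 to -0.30, an unadjusted p of 0.0156 and an adjusted p of 1.00. Without PBS replicate 1 it was -0.63. Against EnzR EV it was -0.73 ± 0.47, and without EnzR EV replicate 3, the highest EnzR EV mouse, it was -0.35. EnzR EV against PBS gave -0.57 ± 0.46, which turned to 0.10 without PBS replicate 1.

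Trem2 and its adaptor did not keep a fixed proportion. Trem2 counts per 1000 Tyrobp counts were 14.9, 8.76 and 7.41 in PBS mice, 2.58, 6.93 and 9.92 in EnzR EV mice, and 8.15, 5.61 and 5.88 in EnzR EV + HDL NP mice. The 2 mice with the highest Tyrobp levels thus held the highest and the lowest share of Trem2.

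Oscar (chromosome 7:3609813-3616157, minus strand) encodes the osteoclast-associated receptor, a collagen-binding receptor that signals through the FcRγ adaptor. It had 0 counts in all 3 PBS libraries, 1, 0 and 1 in the EnzR EV libraries, and 0, 0 and 2 in the EnzR EV + HDL NP libraries. Every value was below the floor of its library, so a difference between groups was not detectable at this depth and no fold change is given. A count of 0 allows up to 0.172 TMM CPM in PBS replicate 3 and up to 0.528 in PBS replicate 1.

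Nfatc1 (chromosome 18:80606205-80713071, minus strand), the master transcription factor of osteoclast differentiation and a factor of other leukocytes, was measured at 86.4, 132 and 125 TMM CPM in PBS mice. EnzR EV mice had 52.1, 122 and 100, and EnzR EV + HDL NP mice 98.1, 124 and 149. All 3 groups overlapped, and the lowest values were those of EnzR EV replicate 1 and PBS replicate 1. Each EnzR EV mouse lay below the PBS mouse of the same replicate number. The means were 115 ± 24.6, 91.5 ± 35.8 and 124 ± 25.6 TMM CPM. The edgeR log2 fold changes were -0.31 ± 0.29 for EnzR EV against PBS, 0.11 ± 0.29 for EnzR EV + HDL NP against PBS and 0.42 ± 0.29 for EnzR EV + HDL NP against EnzR EV, with adjusted p of 0.928, 1.00 and 0.540. As single libraries were left out, the first estimate ran from -0.54 to -0.040, the second from -0.057 to 0.26 and the third from 0.15 to 0.65. The first and the third came nearest to 0 without EnzR EV replicate 1. A gene annotated as AC123818.1 overlaps Nfatc1 on the other strand.

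Acp5 (chromosome 9:22126727-22135711, minus strand) encodes tartrate-resistant acid phosphatase, the enzyme stained to identify osteoclasts, which macrophages and dendritic cells also make. It was the member with the clearest separation of the PBS mice from both EV-injected groups. PBS mice had 8.62, 10.8 and 8.92 TMM CPM, EnzR EV mice 4.94, 6.49 and 7.09, and EnzR EV + HDL NP mice 6.25, 5.36 and 5.10. All 6 EV-injected mice lay below all 3 PBS mice, and the EV-injected groups overlapped each other. The edgeR log2 fold change for EnzR EV against PBS was -0.57 ± 0.23, with a 95% interval from -1.08 to -0.058, an unadjusted p of 0.0325 and an adjusted p of 0.928. For EnzR EV + HDL NP against PBS it was -0.76 ± 0.22, with an interval from -1.25 to -0.27 and an unadjusted p of 0.00581, rank 30 of the 12553 genes, and the adjusted p was 1.00. The direct comparison of EnzR EV + HDL NP with EnzR EV gave -0.19 ± 0.23, with an interval from -0.71 to 0.32. That estimate was -0.091 without EnzR EV replicate 3 and -0.0031 with scaling by library size only.

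Acp5 kept the sign of both differences from PBS whichever library was left out, the log2 fold change running from -0.67 to -0.45 for EnzR EV and from -0.84 to -0.65 for EnzR EV + HDL NP. Without PBS replicate 1 and EnzR EV replicate 1 together, the libraries with the lowest totals, the values were -0.53 and -0.82. The ratio of Acp5 to Csf1r did not separate the groups. Acp5 counts per 1000 Csf1r counts were 22.7, 31.7 and 27.0 in PBS mice, 23.2, 21.6 and 21.0 in EnzR EV mice, and 23.4, 16.8 and 16.0 in EnzR EV + HDL NP mice, so that PBS replicate 1 fell within both other ranges. The value of EnzR EV replicate 1 rests on 9 Acp5 counts. The gene 6530413G14Rik overlaps Acp5 on the other strand.

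Ctsk (chromosome 3:95499256-95509362, plus strand) encodes cathepsin K, the collagen-degrading protease of the osteoclast. PBS mice had 1.41, 8.86 and 3.26 TMM CPM, EnzR EV mice 0, 1.60 and 1.54, and EnzR EV + HDL NP mice 3.04, 1.85 and 2.65. The EnzR EV mice overlapped the PBS mice through PBS replicate 1, and all EnzR EV + HDL NP mice lay above all EnzR EV mice. PBS replicate 2 held 154 of the 219 Ctsk counts of the PBS group. The edgeR log2 fold change for EnzR EV against PBS was -1.79 ± 0.67, with a 95% interval from -3.27 to -0.31, an unadjusted p of 0.0220 and an adjusted p of 0.928. It was -0.86 without PBS replicate 2, and -2.14 without PBS replicate 1. EnzR EV + HDL NP against PBS gave -0.90 ± 0.59, which turned to 0.044 without PBS replicate 2. EnzR EV + HDL NP against EnzR EV gave 0.89 ± 0.67, with an adjusted p of 0.557.

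Atp6v0d2 (chromosome 4:19876841-19922605, minus strand) encodes a subunit of the proton pump that acidifies the resorption space, and it also serves in precursor fusion. It had 0, 22 and 15 counts in PBS libraries, 3, 6 and 3 in EnzR EV libraries, and 20, 7 and 3 in EnzR EV + HDL NP libraries. As TMM CPM this was 0, 1.27 and 0.858, then 1.65, 0.319 and 0.355, then 1.126, 0.417 and 0.210. All groups overlapped, and the highest value of the series, 1.65, rested on 3 counts in the smallest library. The gene passed the filter through 4 libraries, 2 of PBS and 1 of each other group, that reached 0.641 CPM. For EnzR EV against PBS the mean level was slightly higher (0.773 against 0.708 TMM CPM) while the edgeR log2 fold change, which weighs libraries by their counts, was -0.75 ± 0.98. Its interval, from -2.92 to 1.42, allows a difference of over 2-fold in either direction, so no direction can be read at this depth.

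**Figure D2:**
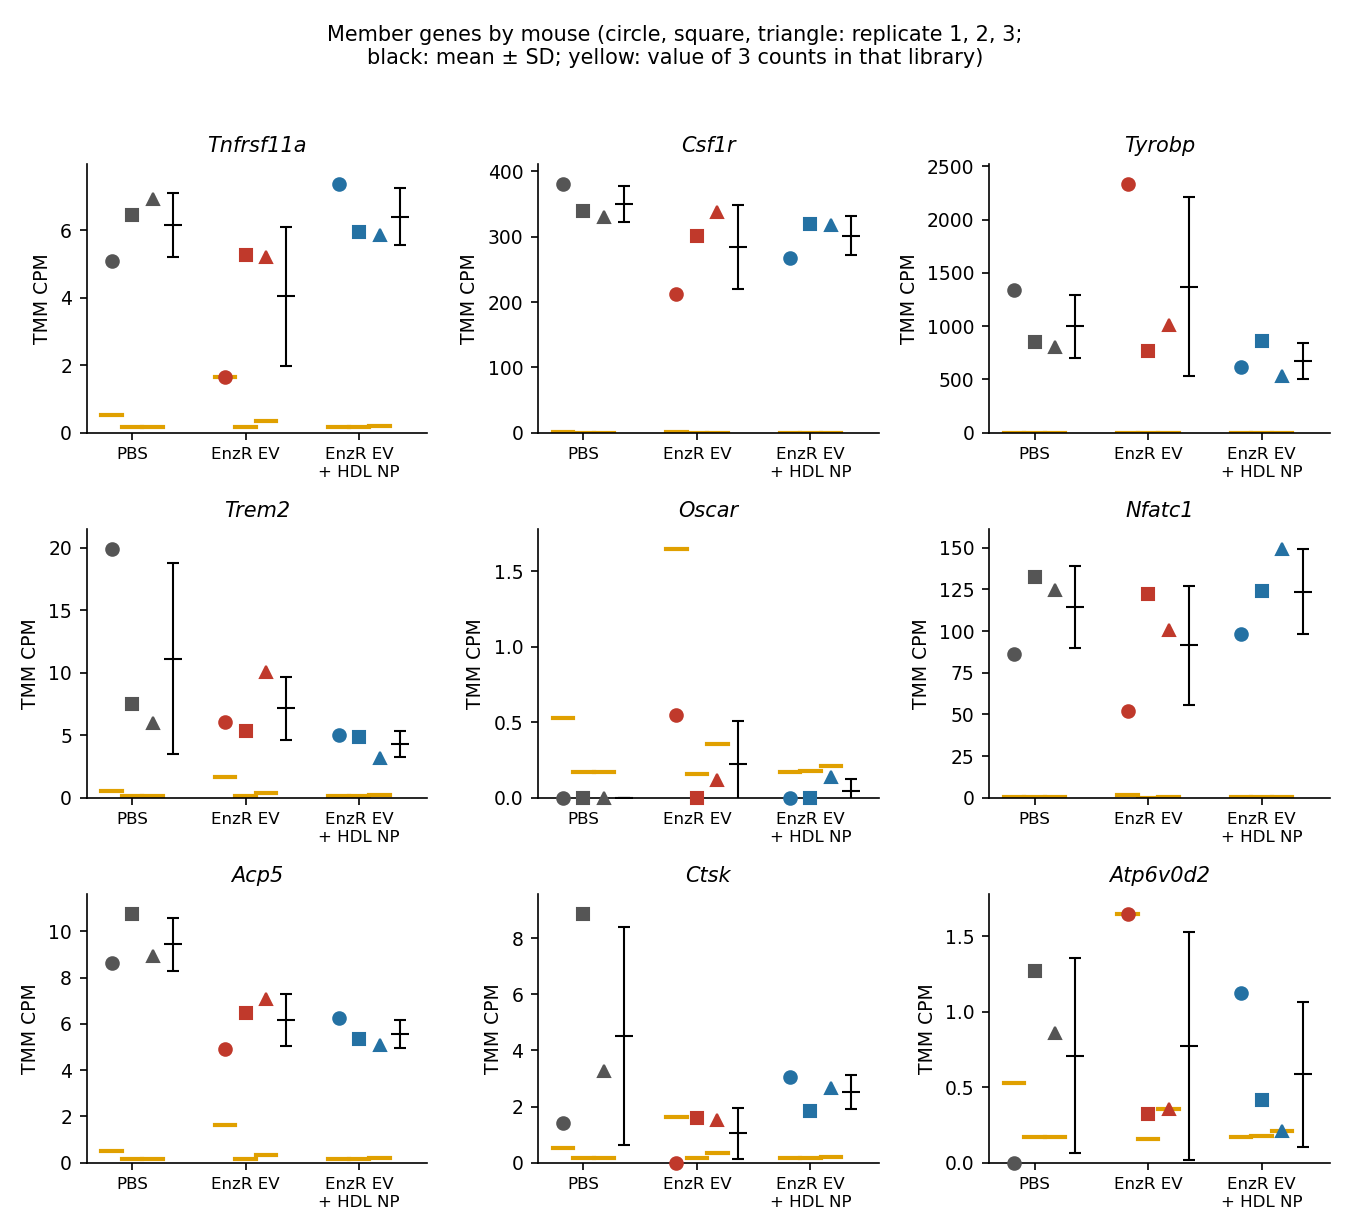
TMM CPM of each member in each mouse, by group on the horizontal axis, with circles, squares and triangles for replicates 1, 2 and 3, the mean ± SD in black and the level of 3 counts in that library in yellow; each vertical axis starts at 0. Acp5 is the panel where all 6 EV-injected mice (4.94 to 7.09) lie below the PBS mice (8.62 to 10.8), and Oscar is the panel where every point lies under its yellow mark.

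For EnzR EV against PBS, 7 of the 8 members tested had a negative log2 fold change, with a median of -0.51 against -0.027 over all genes tested. Of the 7, Atp6v0d2 has no readable direction at its depth and Trem2 turned positive without PBS replicate 1, while Tyrobp, the member with a positive value, turned negative without EnzR EV replicate 1. The groups did not overlap for 1 member, Acp5, which was lower. When mice were matched by replicate number, Tnfrsf11a, Nfatc1, Acp5 and Ctsk were lower in EnzR EV than in PBS in every pair. The other members tested differed in direction between pairs. The share of all genes tested that was lower in every pair was not determined, so these pairs are a description only. What a replicate number marks is not stated, and no member passed with it as a block. Groups that did not overlap, the rule that Acp5 alone met here, were found for 7.96% of all genes tested in either direction. With EnzR EV lower they were found for 4.52%. An unadjusted edgeR p under 0.05 was reached by 2 members, Acp5 and Ctsk, against 3.47% of all genes. Against PBS, the EnzR EV + HDL NP mice gave 6 negative values of 8, with a median of -0.51 against -0.0072 over all genes, and the signs of Tnfrsf11a, Nfatc1, Ctsk and Atp6v0d2 turned when single libraries were left out. Csf1r, Acp5 and Trem2 were lower without overlap, 3 of 8 members, whereas 6.21% of all genes were lower and 13.2% separated in either direction. Acp5 and Trem2 had an unadjusted edgeR p under 0.05, as had 2.13% of all genes.

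For EnzR EV + HDL NP against EnzR EV the member median was 0.20 against 0.033 over all genes, with 5 positive and 3 negative values, of which Csf1r and Atp6v0d2 changed sign when single libraries were left out. Tnfrsf11a and Ctsk were higher and Trem2 was lower without overlap, where 17.6% of all genes separated, 8.99% upward and 8.58% downward. For Trem2 the groups overlapped when scaled by library size only. Tyrobp was the single member with an unadjusted edgeR p under 0.05, as were 10.6% of all genes. The members belong to the same pathway and are not independent of each other, so these counts are descriptions.

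**Figure D3:**
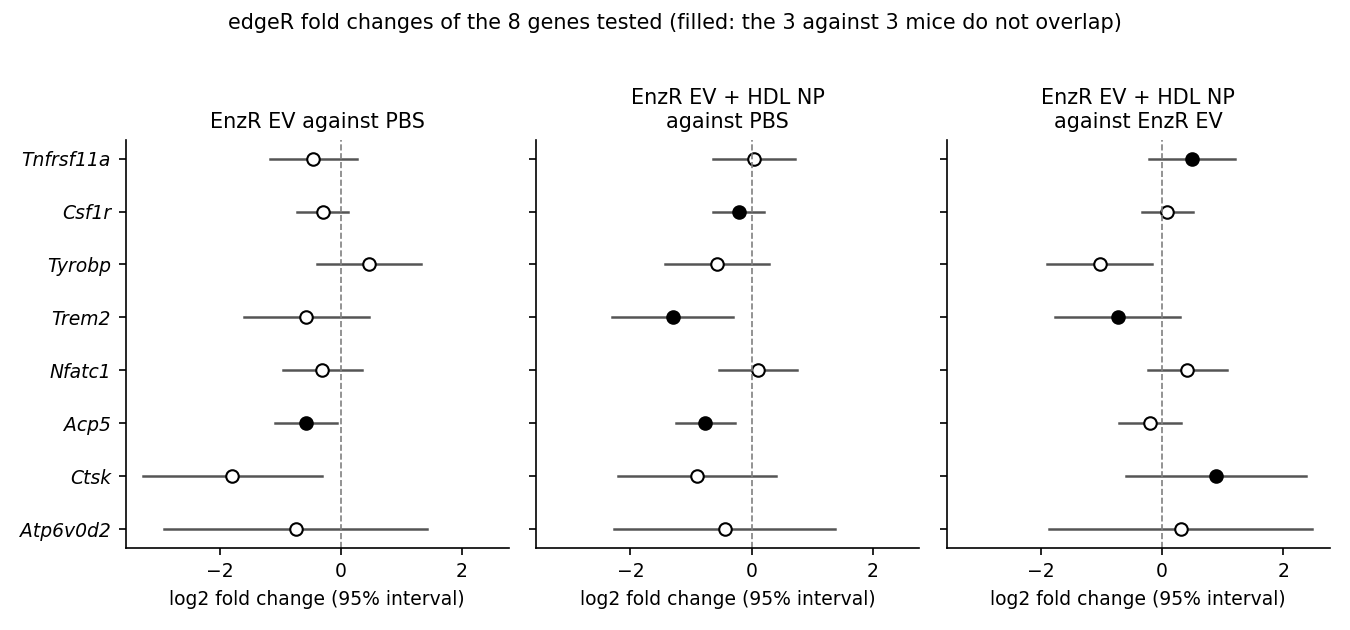
edgeR log2 fold changes of the 8 members tested, with 95% intervals, in the 3 comparisons; filled circles mark members whose 3 mice per group do not overlap. Intervals that leave out 0 before adjustment belong to Acp5 and Ctsk (left), Trem2 and Acp5 (middle) and Tyrobp (right), and none of these passed adjustment over all genes.

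Several members moved with the Rn45s share of the library. In the 3 libraries with over 10% Rn45s, Tyrobp lay between 1013 and 2336 TMM CPM, against 534 to 860 in the other 6. Tnfrsf11a lay between 1.65 and 5.20 against 5.27 to 7.37, and Ctsk between 0 and 1.54 against 1.60 to 8.86. These 3 of 8 members were separated without overlap, and so were 33.4% of all genes tested, which leaves the members near the background. Trem2 was at 6.04 to 19.9 against 3.14 to 7.48, Nfatc1 at 52.1 to 100 against 98.1 to 149, and Csf1r at 213 to 381 against 267 to 339. Acp5 lay at 4.94 to 8.62 in the libraries rich in Rn45s and at 5.10 to 10.8 in the others. All 3 libraries rich in Rn45s came from the PBS and EnzR EV groups. The part of the Rn45s share in the group differences was not tested.

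**Figure D4:**
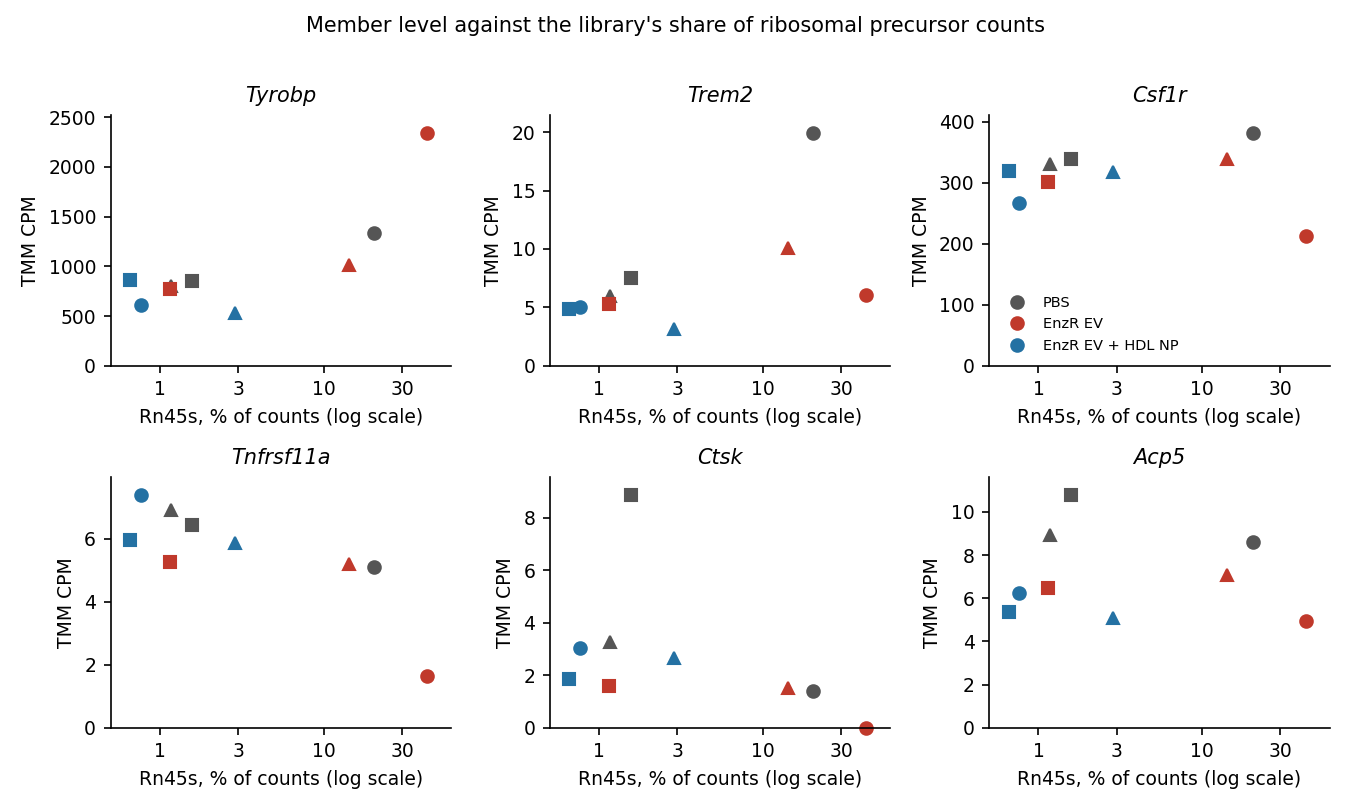
TMM CPM of 6 members (vertical axis, from 0) against the percentage of the library's counts that fell on Rn45s (logarithmic axis), 1 point per mouse, coloured by group, with circles, squares and triangles for replicates 1, 2 and 3. Tyrobp is highest, and Tnfrsf11a and Ctsk lowest, in the 3 libraries with 14.2% to 42.7% Rn45s, while the Acp5 levels of those libraries (4.94 to 8.62) lie within those of the other 6 mice or just below them.

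Promoter windows from RefSeq, 250 bases before to 50 after a transcript start, were at hand for 5 members: Tnfrsf11a, Acp5, Ctsk, Oscar and Trem2. The windows of Acp5, Ctsk and Trem2 are shown because these are the members with an unadjusted edgeR p under 0.05 against PBS. Acp5 has 3 windows, and the one of lowest coordinates is shown (chr9:22130549-22130848, minus strand). On the minus strand this is the start furthest downstream. The Ctsk window is chr3:95498960-95499259 and the Trem2 window chr17:48346151-48346450, both on the plus strand, and all are on GRCm38.p6. Capitals mark matches on either strand of GGAAA, the core bound by NFAT factors, of CACATG, an E-box of the kind bound by MITF and its relatives, and of TGANTCA, the AP-1 site. Sequences run 5′ to 3′ on the strand of the gene.
Acp5: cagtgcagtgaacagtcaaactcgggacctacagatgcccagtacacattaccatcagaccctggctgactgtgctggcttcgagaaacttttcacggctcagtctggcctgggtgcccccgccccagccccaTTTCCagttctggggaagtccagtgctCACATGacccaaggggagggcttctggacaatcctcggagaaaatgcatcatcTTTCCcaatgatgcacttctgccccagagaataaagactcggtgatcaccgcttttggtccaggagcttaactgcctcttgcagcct
Ctsk: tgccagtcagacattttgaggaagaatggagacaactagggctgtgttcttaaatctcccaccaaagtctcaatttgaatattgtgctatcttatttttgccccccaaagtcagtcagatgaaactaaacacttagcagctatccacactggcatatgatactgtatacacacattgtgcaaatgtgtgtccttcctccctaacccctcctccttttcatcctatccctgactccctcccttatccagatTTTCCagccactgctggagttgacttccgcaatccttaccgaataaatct
Trem2: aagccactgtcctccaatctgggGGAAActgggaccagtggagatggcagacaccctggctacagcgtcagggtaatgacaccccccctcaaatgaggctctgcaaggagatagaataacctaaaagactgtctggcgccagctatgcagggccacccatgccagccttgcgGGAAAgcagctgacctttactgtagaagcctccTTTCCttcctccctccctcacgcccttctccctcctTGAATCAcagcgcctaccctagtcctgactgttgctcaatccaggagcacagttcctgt
The shown Acp5 window holds CACATG at -90 from the transcript start and GGAAA, on the opposite strand, at -117 and -37. The Acp5 windows not shown hold no CACATG and 1 GGAAA each. The Ctsk window holds GGAAA on the opposite strand, beginning at 1, the first transcribed base. The Trem2 window holds TGANTCA at -9 and GGAAA at -227, -78 and, on the opposite strand, -45. Of all 32851 RefSeq windows of this length, 61.3% hold GGAAA, 14.2% CACATG and 7.81% TGANTCA, and no capital overlaps another motif. The E-box CACGTG and GAGGAA, a core bound by PU.1, were searched as well and are left in lower case. CACGTG is in none of the 3 windows shown and in 7.15% of all windows, while GAGGAA, in 28.3% of all windows, is at -233 and, on the opposite strand, -58 for Ctsk and at -40 on the opposite strand for Trem2. These are matches of letters only.

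Of the ligands of the member receptors and the decoy receptor of RANK ligand, only Csf1 passed the filter on low counts. Csf1, which encodes macrophage colony-stimulating factor, was at 23.6 ± 3.29 TMM CPM in PBS mice, 23.3 ± 3.65 in EnzR EV mice and 30.6 ± 2.79 in EnzR EV + HDL NP mice, with an edgeR log2 fold change of 0.37 ± 0.18 for the last against PBS and an unadjusted p of 0.0725. Tnfsf11, encoding RANK ligand, had 9 counts in all 9 libraries together, Il34 had 31, and Tnfrsf11b, encoding the decoy receptor osteoprotegerin, had 0. Of these 4 genes, 1 was tested.

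All 22 genes listed for RANK signalling were tested, and 20 had a negative value for EnzR EV against PBS, with a median log2 fold change of -0.18 against -0.027 over all genes. The AP-1 gene Fos was the most abundant of them, at 1276 ± 90.2 TMM CPM in PBS mice, 800 ± 163 in EnzR EV mice and 905 ± 205 in EnzR EV + HDL NP mice. Its log2 fold changes against PBS were -0.67 ± 0.21 and -0.50 ± 0.21, with unadjusted edgeR p of 0.0100 and 0.0419. Jun, its partner, was at -0.95 ± 0.36 for EnzR EV + HDL NP against PBS. Ppargc1b, a coactivator of mitochondrial genes in osteoclasts, was the least abundant. With HDL NPs, 12 of the 22 were positive against PBS. No gene of this list passed adjustment, the background of called genes being 0%.

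Of 8 repressors of osteoclast formation, 4 were higher and 4 lower for EnzR EV against PBS. Id1, an inhibitor of basic helix-loop-helix factors, was at 26.4 ± 5.28, 32.2 ± 9.46 and 20.1 ± 2.50 TMM CPM in PBS, EnzR EV and EnzR EV + HDL NP mice, and its log2 fold change for EnzR EV + HDL NP against EnzR EV was -0.64 ± 0.24. Tnfaip3, which encodes the NF-κB inhibitor A20, was at -0.51 ± 0.20 for EnzR EV + HDL NP against PBS. None of the 8 passed adjustment.

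Of 15 further genes of ITAM signalling, 14 were tested and 13 were lower for EnzR EV against PBS, with a median of -0.19. Trem1, the DAP12-coupled receptor of neutrophils and monocytes, was at 329 ± 60.4 TMM CPM in PBS mice, 202 ± 58.7 in EnzR EV mice and 305 ± 49.2 in EnzR EV + HDL NP mice. Its log2 fold changes were -0.70 ± 0.23 for EnzR EV against PBS and 0.59 ± 0.23 for EnzR EV + HDL NP against EnzR EV. Syk, the kinase recruited by ITAMs, was the most abundant and had log2 fold changes from -0.079 to 0.084 in the 3 comparisons. Blnk, an adaptor downstream of it, was at -1.01 ± 0.42 for EnzR EV + HDL NP against PBS.

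Among 15 genes of the mature osteoclast, 12 were tested. The fusion genes Dcstamp and Ocstamp had 10 and 16 counts in all, and Calcr, encoding the calcitonin receptor, had 3. Calcr and Dcstamp were at 3 counts or fewer in every library, and Ocstamp in 7 of 9, with at most 4. Mmp9, at 2949 ± 452 TMM CPM in PBS mice, was the most abundant, and neutrophils also store its product. For EnzR EV against PBS, 8 of the 12 were lower, with a median of -0.17. Car2, the carbonic anhydrase that supplies protons, was at -0.78 ± 0.32 there. Ckb, the brain-type creatine kinase, was at -0.71 ± 0.20 for EnzR EV + HDL NP against PBS, with an unadjusted edgeR p of 0.00556.

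Of 15 other subunits of the proton pump, 14 were tested, and Atp6v0c, with 3 counts in all, was not. Among the 14 the most abundant was Atp6v1b2 at 331 ± 103 TMM CPM in PBS mice and the least abundant Atp6v1f at 41.6 ± 1.10. Of these, 11 had a positive value for EnzR EV against PBS, at a median of 0.16, with Atp6v1d at 0.44 ± 0.19 and an unadjusted edgeR p of 0.0377. A negative value was found for 11 of the 14 in EnzR EV + HDL NP against EnzR EV, among them Atp6v0b at -0.56 ± 0.20 and Atp6v1g1 at -0.56 ± 0.22. Of 8 lysosomal cathepsins, Ctsz was at -0.80 ± 0.25 in that comparison, and for EnzR EV against PBS 4 were higher and 4 lower. Ctsd was the most abundant of the cathepsins, at 740 ± 90.7 TMM CPM in PBS mice, and Ctsl the least, at 31.1 ± 2.81, which still lay above Ctsk at 4.51 ± 3.88.

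Markers of the cells that could carry the members were compared in the same way, and their part in the member differences was not tested. In bulk RNA, fewer cells of a type cannot be told apart from less RNA per cell. Of 15 marrow macrophage markers, 14 were lower for EnzR EV against PBS, 7 of them at an unadjusted edgeR p under 0.05 where 1.92% of all genes were, and the median was -0.84. All 15 were lower for EnzR EV + HDL NP against PBS, at a median of -0.42, with Axl, Cd163 and Cd5l at an unadjusted edgeR p under 0.05. For EnzR EV + HDL NP against EnzR EV, 12 were higher and 3 lower, at a median of 0.39 against 0.033 over all genes. The only marker at an unadjusted edgeR p under 0.05 there was a lower one, C1qb, at -1.42 ± 0.44 (p of 0.00848). Their summed level was 1218 to 2211 TMM CPM in PBS mice, 1068 to 1243 in EnzR EV mice and 1248 to 1386 in EnzR EV + HDL NP mice. Axl, a receptor for dying cells, was at -0.78 ± 0.19 and -0.72 ± 0.18 for the EV-injected groups against PBS. Cd5l and Mrc1 were at -1.07 ± 0.27 and -1.07 ± 0.31 for EnzR EV against PBS.

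Of 12 monocyte markers, 10 were lower for EnzR EV against PBS, with a median of -0.40, and 7 were lower for EnzR EV + HDL NP against PBS. In the comparison of EnzR EV + HDL NP with EnzR EV, 11 were higher and 1 lower, at a median of 0.37. Their sum was 4241 to 4453 TMM CPM in PBS mice, 2157 to 4284 in EnzR EV mice, with the lowest value in replicate 1, and 3655 to 4998 in EnzR EV + HDL NP mice. Cx3cr1 and Fn1 were at -0.61 ± 0.17 and -0.80 ± 0.22 for EnzR EV against PBS. Of 8 dendritic cell markers, 3 were higher and 5 lower for EnzR EV against PBS, with Bst2 at 0.73 ± 0.23. Irf4 was at -1.35 ± 0.24 and -0.63 ± 0.22 and Cd209a at -1.39 ± 0.46 and -1.10 ± 0.42 for the EV-injected groups against PBS, while the sum of the list was 90.3 to 126, 95.4 to 111 and 87.0 to 117 TMM CPM in PBS, EnzR EV and EnzR EV + HDL NP mice. None of these markers was at 0 in all libraries of a group.

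Neutrophil markers were the most abundant list, 10 of 11 being in the tables, with sums of 54690 to 115350, 29711 to 125150 and 83649 to 147803 TMM CPM in the 3 groups, and all 10 were lower for EnzR EV against PBS at a median of -0.20, while 8 of the 10 were higher for EnzR EV + HDL NP against PBS at a median of 0.24. All 10 neutrophil markers were higher for EnzR EV + HDL NP against EnzR EV, at a median of 0.36. The 3 lowest sums were those of the 3 libraries with the highest Rn45s share, EnzR EV replicate 1 (29711), PBS replicate 1 (54690) and EnzR EV replicate 3 (67230), whereas EnzR EV replicate 2 (125150) lay above every PBS mouse. Of 10 markers of osteoblasts and stroma, 7 were tested and 5 were lower for EnzR EV against PBS, the sums being 70.1 to 131, 72.5 to 119 and 71.9 to 114 TMM CPM. No gene of these lists passed adjustment.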

How the data were processed

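Stranded total RNA libraries, read as single ends of 75 bp, came from CD11b+ marrow cells of 9 mice in 3 groups of 3. The deposited values are whole-number read counts of 23337 genes, 1 table a library, with no normalization by the authors. By the study's account, htseq-count with a UCSC annotation gave the counts from STAR alignments to mm10. Adapter sequence, rRNA reads and low-quality reads had been taken out beforehand. The submitters' processing notes name cutadapt 1.13, HTSeq 0.6.1p1 and DESeq2. Groups came from the sample titles, and 0 value columns were left unmapped. The labels list separate samples, and the methods state 3 mice per group. PBS replicates 2 and 3 were the most alike, with a chi-square of 4.65 per gene against 29.3 to 590 for the other pairs within groups, which is above sampling noise, so all 9 were counted separately.

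Counts were analysed with edgeR 4.0.16 in R 4.3.3: TMM factors, filterByExpr by group (12553 genes kept), a robust quasi-likelihood fit to all 9 libraries, and Benjamini-Hochberg adjustment over all genes tested, with calls at an adjusted p under 0.05. The biological coefficient of variation was 0.259. Scripts were tested on simulated data. Exact permutation tests were two-sided. The floor was 3 counts per library, and under 10 was near it. It covers counting error only, since reads carry no molecular identifiers. Exon lengths and coordinates came from GENCODE M21 (98.0% of symbols matched), with exons of RefSeq-paired transcripts, and promoters from RefSeq GRCm38.p6. DESeq2 1.42.0, limma 3.58.1, other scalings, filters, sample sets and a replicate block were alternatives. The labels do not say what a replicate number marks. Deviations from group means correlated at 0.47, 0.49 and 0.13 between same-numbered PBS and EnzR EV samples, and over all groups at 0.17 on average for 9 same-numbered pairs, 6 of them above 0.1, and at -0.076 for 18 others.

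Named genes were all members and, of each other list, the most and least abundant gene tested and up to 3 with the smallest unadjusted p, of which those bearing on the members are given. The 3 genes of most similar pattern of each member were taken by the root mean square difference of centred log2 CPM (prior count 2). The members and lists were chosen with earlier results of these data known. Some genes that the rule names are not reported here.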

Additional observations from a re-analysis of the deposited data

How the results depend on the processing

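No member passed an adjusted p of 0.05 under any of the 335 alternative values computed for the 24 member differences, and 16 of these differences kept their sign throughout. The number of genes called for EnzR EV against PBS, 0 with edgeR, was 8 with DESeq2, 1 without the filter, 1990 with limma voom and sample quality weights, and 5 without PBS replicate 1 and EnzR EV replicate 1 together, and 0 to 2 when single libraries were left out, the 2 coming without PBS replicate 1. Against PBS, EnzR EV + HDL NP gave 7 genes with DESeq2 and 10 with limma voom, while for EnzR EV + HDL NP against EnzR EV it was 1 with DESeq2, 653 with limma voom, 1 with only the 6 libraries compared and 1 without the 2 libraries of lowest total. Values that changed sign were, for EnzR EV + HDL NP against PBS, Tnfrsf11a (-0.074 with limma voom, -0.059 without the 2 libraries of lowest total, -0.061 to 0.13 with single libraries left out), Nfatc1 (-0.035, -0.055, and -0.057 to 0.26), Ctsk (-1.27 to 0.044 with single libraries left out) and Atp6v0d2 (-1.30 to 0.15). In the comparison of EnzR EV + HDL NP with EnzR EV they were Csf1r (-0.076 with limma voom, -0.090 without the 2 libraries, -0.090 to 0.24 with single libraries left out) and Atp6v0d2 (-0.097 with DESeq2, -0.62 to 0.82 with single libraries left out). For EnzR EV against PBS they were Tyrobp (-0.16 to 0.77 with single libraries left out) and Trem2 (0.37 with limma voom, 0.17 without the 2 libraries, -0.96 to 0.10 with single libraries left out). The cause was not tested. Mean levels of all members moved by less than 1 SD when the TMM factors were left out. Depth limits Oscar and Atp6v0d2 in every group and Ctsk and Tnfrsf11a in EnzR EV replicate 1.

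With the replicate block, edgeR called 1 gene for EnzR EV against PBS and 0 in the other comparisons, and no member.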

Other observations

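For each member tested, up to 3 genes whose log2 CPM followed it most closely over the 9 mice, each centred on its mean, were listed as a description, and the part of library-wide differences such as the Rn45s share was not tested. Csf1r was followed most closely by Nfkb2 and Ptpn18, at root mean square differences of 0.070 to 0.078 log2 units against its own spread of 0.23. Tyrobp was followed by Fam89b, 1700020L24Rik and Cebpa at 0.10 to 0.12, against a spread of 0.60. Nfatc1 was followed by Rin3, Sgms1 and Pik3cg at 0.085 to 0.093, against a spread of 0.43, and Tnfrsf11a by Vps41, Mudeng and Elmod2 at 0.11 to 0.13, against 0.58. Acp5 was followed by Clec10a, Mfng and Ckb at 0.15 to 0.19, against a spread of 0.36. Of these, Clec10a encodes a lectin of macrophages and dendritic cells, and Ckb is also in the list of mature osteoclast genes. Ctsk was followed by Klrd1, Slamf7 and Tgm3 at 0.51 to 0.53, against a spread of 1.49, Trem2 by Clybl, 1700007L15Rik and 2810428I15Rik at 0.27 to 0.31, against 0.70, and Atp6v0d2 by Adarb1, 1810044D09Rik and Sdc2 at 0.49 to 0.54, against 1.07.

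Early granulocyte markers had sums of 1520 to 1988 TMM CPM in PBS mice, 2020 to 2175 in EnzR EV mice and 857 to 1763 in EnzR EV + HDL NP mice. All 5 were lower for EnzR EV + HDL NP against EnzR EV, with Prtn3, a serine protease of azurophil granules, at a log2 fold change of -0.98 ± 0.25 and Mpo, encoding myeloperoxidase, at -0.96 ± 0.32. Erythroid markers, which the selection and red cell lysis remove in part, had sums of 95.9 to 258 TMM CPM in PBS mice, 57.0 to 122 in EnzR EV mice and 49.2 to 346 in EnzR EV + HDL NP mice, with the beta-globin gene listed as Beta-s the most abundant, at 142 ± 83.5 TMM CPM in PBS mice, and the globin symbols Hba-a1 and Hbb-b1 listed at 0 counts in all libraries. All 7 erythroid markers tested had negative values for EnzR EV against PBS, at a median of -1.25, with Alas2, Epb4.2 and Rhag at an unadjusted edgeR p under 0.05. Megakaryocyte markers had sums of 24.8 to 101, 30.3 to 71.2 and 36.0 to 53.1 TMM CPM in the same order. B lineage markers had sums of 15.7 to 22.4, 9.10 to 20.3 and 7.61 to 20.9 TMM CPM. All 6 B lineage markers tested had negative values for EnzR EV against PBS, at a median of -0.83, with Cd79b and Pax5 at an unadjusted edgeR p under 0.05. The T and NK cell markers had sums of 50.2 to 62.5, 53.9 to 80.7 and 31.6 to 57.1 TMM CPM. None of the genes in these lists passed an adjusted p of 0.05 in edgeR, where the counts of called genes were 0 in all 3 comparisons and the counts at an unadjusted p under 0.05 were 436, 268 and 1325.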
